A study of Mus musculus with 4 samples.

Results

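The genes examined here encode the subunits of Mediator, the complex that carries signals from DNA-bound transcription factors to RNA polymerase II. They were taken by symbol, as every gene named Med with a number (with or without a final l), Cdk8, Cdk19 or Ccnc, which gave 33 of the 55401 gene identifiers in the count tables. B220+ B cells were sorted at high purity from the spleen of C57BL/6J mice, and their RNA was sequenced in 2 libraries of NSD1B WT (Mb1-Cre+ NSD1+/+) and 2 libraries of NSD1B KO (Mb1-Cre+ NSD1fl/fl). Both genotypes carry Mb1-Cre, which is active from early B cell development, and the floxed allele loses exons 6-8 of Nsd1, a gene for a methyltransferase of histone H3 lysine 36. The study used young adult mice of both sexes, and the age and sex behind each library were not given. Nothing says whether the libraries of a genotype came from different mice, so the p-values measure only the spread between these libraries. The question was which subunits, and which modules of the complex, differed in RNA level between NSD1B KO and NSD1B WT B cells.

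Mediator is built from a head, a middle and a tail module, which are held together by the long subunit MED14. The head and middle modules touch RNA polymerase II and the general transcription factors at the promoter, whereas subunits of the tail bind many of the activators that recruit the complex. A separable kinase module, made of CDK8 or its paralog CDK19, cyclin C, MED12 and MED13 (or their paralogs MED12L and MED13L), binds to the complex reversibly and blocks its contact with the polymerase. In B cells, as in other cells, Mediator is found at promoters and at the enhancers of cell identity genes.

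The 4 libraries held 6769118 to 7566834 counts on genes, and Mediator genes took 0.219% to 0.225% of them in NSD1B WT and 0.267% to 0.271% in NSD1B KO. The targeted gene, Nsd1, had 497 and 480 counts in NSD1B WT and 284 and 280 in NSD1B KO (log2 fold change -0.74, standard error 0.11, adjusted p = 8.08e-08 in edgeR's quasi-likelihood test, which is the test used throughout). Of the 7 B cell markers, 0 were higher and 5 were lower in NSD1B KO by edgeR, and their summed level was 12580 to 12810 CPM (counts per 1000000 counts on genes, scaled by the TMM method) in NSD1B WT and 11110 to 12100 CPM in NSD1B KO. Among these markers Pax5, the transcription factor that maintains B cell identity, had 279 and 342 counts in NSD1B WT and 30 and 31 in NSD1B KO. All 5 erythroid markers tested were higher in NSD1B KO, with a summed level of 35.6 to 39.6 CPM in NSD1B WT and 1690 to 1944 CPM in NSD1B KO. Of the 6 myeloid markers, 4 were higher and 2 lower in NSD1B KO. Their summed level, most of it Lyz2, was 4569 to 4672 CPM in NSD1B WT and 5722 to 6072 CPM in NSD1B KO. Csf1r rose from 23 and 27 counts to 375 and 335, whereas Itgam fell from 487 and 615 to 273 and 334. S100a8 fell as well, from 39 and 28 counts to 0 and 0. The summed level of 6 T cell markers was 52.5 to 53.2 CPM in NSD1B WT and 59.3 to 64.8 CPM in NSD1B KO. Of the 3 that were tested, Cd3d and Cd3g were higher and Trac was lower, and Cd4 and Cd8a were at 0 in all libraries. Of 3 NK cell markers the sum was 3.15 to 4.34 CPM and 3.57 to 6.53 CPM with Ncr1 at 0, of 4 plasma cell markers 216.0 to 231.3 CPM and 169.5 to 174.4 CPM with Sdc1 at 0, and of 3 plasmacytoid dendritic cell markers 140.2 to 140.3 CPM and 211.7 to 219.3 CPM with Siglech at 0. Among the tested NK cell, plasma cell and plasmacytoid dendritic cell markers, Klrk1, Prdm1, Bst2 and Tcf4 were higher, and Klrb1c, Jchain and Xbp1 were lower. The part of all these markers in the Mediator results was not tested. In bulk RNA, fewer cells of a type and less RNA per cell cannot be told apart.

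Most Mediator genes differed between the genotypes, in both directions, and the counts by direction were not alike in the modules, a difference that was not tested. Of the 33 genes, 28 had enough counts to be tested, and 16 were higher and 9 lower in NSD1B KO (over 1.2-fold, with an adjusted p under 0.05). All 3 tested subunits of the tail (Med15, Med16 and Med24) fell. With another assignment of subunits to modules, given below, the tail had 4 higher and 3 lower genes. Of the kinase module 5 of 6 tested subunits rose, and the scaffold subunit Med14 rose 41.8-fold. The head and the middle modules were mixed, with 6 higher and 3 lower of 10 tested and 4 higher and 2 lower of 8 tested. The share of tested Mediator genes past the threshold was 89.3%, but 78.2% of all 11657 tested genes passed it too, so a change in itself did not set Mediator apart. By direction, 57.1% of the tested Mediator genes were higher beside 37.1% of all tested genes, and 32.1% were lower beside 41.1%. The median log2 fold change was 0.32 over the tested Mediator genes and -0.10 over all tested genes, and the median absolute value was 0.99 beside 1.16. A log2 fold change of at least 1 in either direction was found for 14 of the 28 Mediator genes and for 54.3% of all tested genes. With a stricter limit (adjusted p under 1e-05 and over 0.5 on the log2 scale in either direction), 11 were higher and 5 lower, beside 27.4% and 29.8% of all tested genes. The libraries of the genotypes did not overlap in CPM for 26 of the 28 tested Mediator genes, beside 88.1% of all tested genes.

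**Figure D1:**
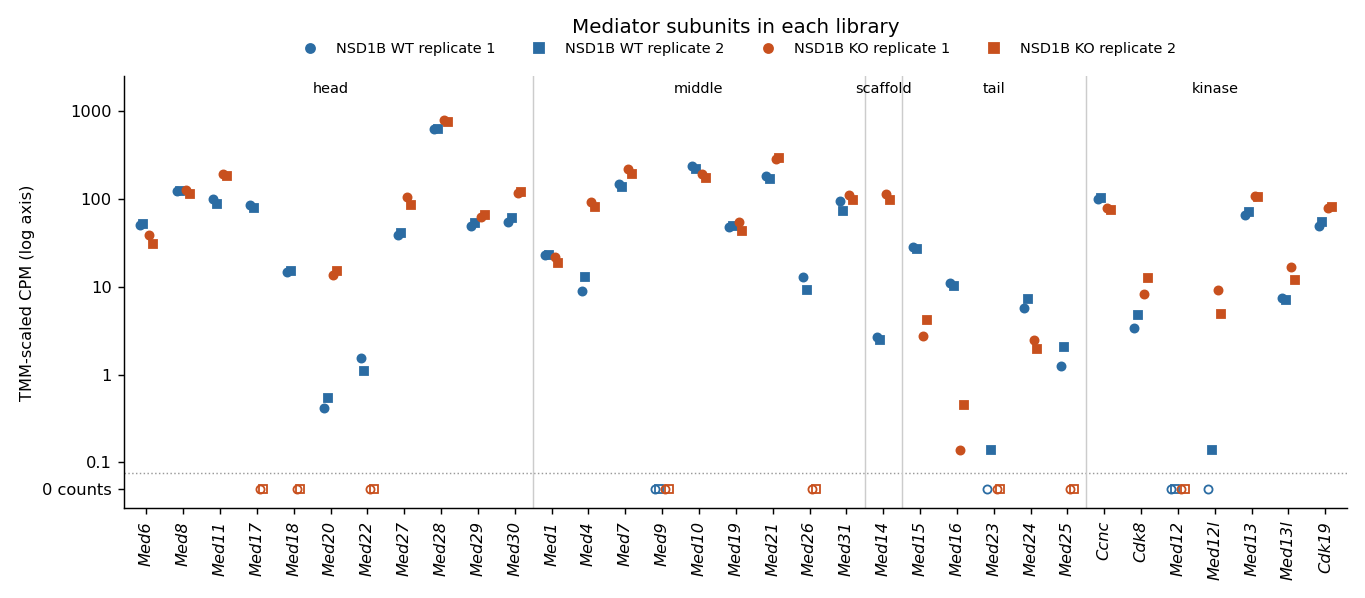
Level of each Mediator gene in each library, as TMM-scaled CPM on a log axis, grouped by module, with NSD1B WT in blue, NSD1B KO in orange, circles for replicate 1, squares for replicate 2 and open symbols at the foot for 0 counts. Replicates of most genes lie close to each other. Med17, Med18 and Med26 drop to 0 in NSD1B KO, and Med4, Med14 and Med20 stand well above their NSD1B WT level in NSD1B KO.

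The replicates of a genotype were close compared with the larger of these differences. For Med31 the NSD1B WT replicates, at 95.16 and 72.64 CPM, lay further apart than the genotype means of 83.9 and 104 CPM. Over the 17 Mediator genes of at least 10 CPM in both genotypes, the median absolute log2 ratio between replicates was 0.10 in NSD1B WT and 0.13 in NSD1B KO. Among these 17 genes, the widest gap between replicates was 0.52 for Med4 in NSD1B WT and 0.35 for Med6 in NSD1B KO. Some genes below that level spread more. In NSD1B KO, Med12l had 9.31 and 4.91 CPM and Med16 had 0.14 and 0.45 CPM.

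**Figure D2:**
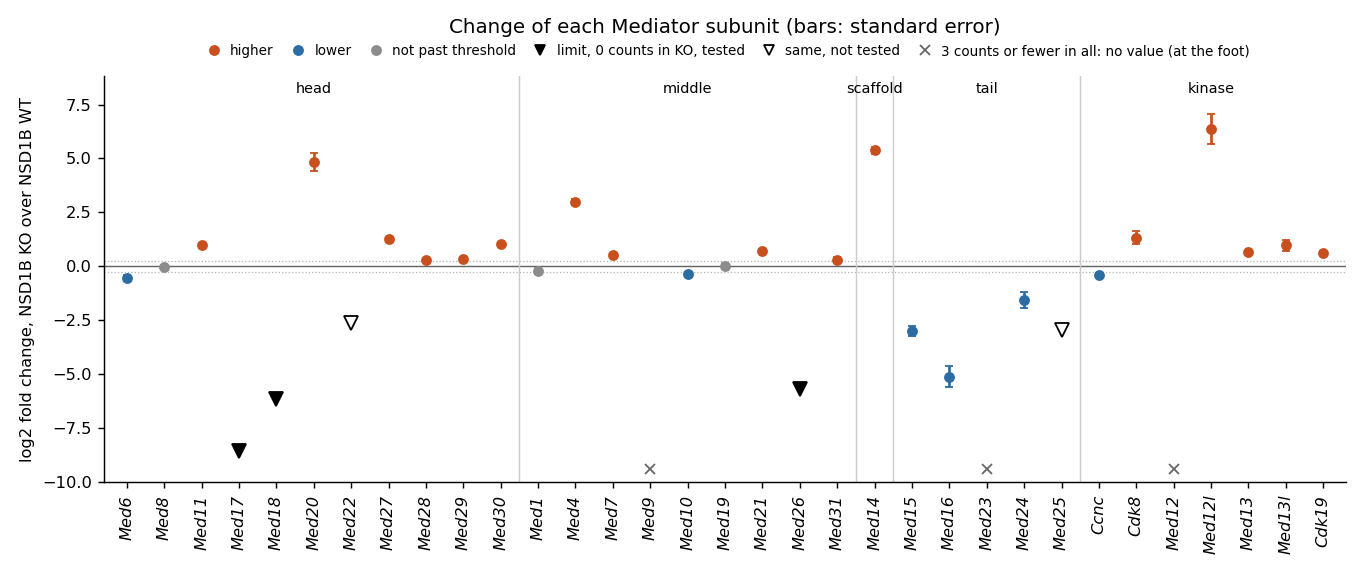
Log2 fold change of NSD1B KO over NSD1B WT for each Mediator gene by module, with the standard error as bars, dotted lines at a fold change of 1.2 and black triangles for limits where both NSD1B KO libraries had 0 counts. The tail as assigned here lies below 0 throughout, the kinase module lies above 0 except for Ccnc, and the head and middle modules spread widely.

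The promoters of 4 genes with large differences, 2 lower and 2 higher in NSD1B KO, are shown so that both directions can be seen side by side. Med17 and Med18 had no count in NSD1B KO, while Med14 and Med4 had counts in all libraries and were well above their NSD1B WT level in NSD1B KO. Each line gives the 250 bases before the RefSeq start of the gene (GRCm38.p6, the assembly also called mm10), read 5′ to 3′ on the strand of the gene. Capitals mark the ETS motif CCGGAAG or its reverse complement CTTCCGG, and the GC box GGGCGG or CCGCCC. The windows are chr9:15279907-15280156 on the minus strand for Med17, chr4:132463922-132464171 on the minus strand for Med18, chrX:12761974-12762223 on the minus strand for Med14 and chr14:73509799-73510048 on the plus strand for Med4.
Med17: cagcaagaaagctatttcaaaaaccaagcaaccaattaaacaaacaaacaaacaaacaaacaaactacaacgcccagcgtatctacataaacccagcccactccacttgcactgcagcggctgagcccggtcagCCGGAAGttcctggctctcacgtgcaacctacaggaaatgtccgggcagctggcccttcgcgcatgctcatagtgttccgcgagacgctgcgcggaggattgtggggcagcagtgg
Med18: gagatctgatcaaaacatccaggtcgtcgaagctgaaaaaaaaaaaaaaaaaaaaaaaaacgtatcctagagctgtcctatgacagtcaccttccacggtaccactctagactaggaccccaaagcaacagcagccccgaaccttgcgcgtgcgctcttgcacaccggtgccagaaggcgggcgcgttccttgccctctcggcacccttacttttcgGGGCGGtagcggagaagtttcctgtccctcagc
Med14: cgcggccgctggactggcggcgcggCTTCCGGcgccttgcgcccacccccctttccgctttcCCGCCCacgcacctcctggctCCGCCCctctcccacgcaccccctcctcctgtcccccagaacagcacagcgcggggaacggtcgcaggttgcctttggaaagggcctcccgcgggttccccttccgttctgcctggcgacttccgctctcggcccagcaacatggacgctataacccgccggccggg
Med4: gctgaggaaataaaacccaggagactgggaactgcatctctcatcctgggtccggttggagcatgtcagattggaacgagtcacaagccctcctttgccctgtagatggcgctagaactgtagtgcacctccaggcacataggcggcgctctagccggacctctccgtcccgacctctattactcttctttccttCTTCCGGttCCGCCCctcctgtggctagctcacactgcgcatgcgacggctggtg
These windows held 14 CpG dinucleotides before Med17, 16 before Med18, 28 before Med14 and 13 before Med4. Their GC content was 53.6%, 52.8%, 72.0% and 57.6% in the same order, beside a median of 52.4% over all promoters of the table and 56.8% over the Mediator genes. An ETS motif stood before Med17, which was at 0 in NSD1B KO, as well as before Med14 and Med4, which rose. Over the 28 Mediator genes with a promoter entry, the median was 18 CpG (3 to 51), beside a median of 6 over all 32851 promoters of the table, and 21.7% of all promoters had at least 18. The GC box was found in 18 of the 28 (64.3%) beside 32.7% of all promoters, and the ETS motif in 4 (Med4, Med14, Med17 and Med19, or 14.3%) beside 6.91%. The CCAAT box (CCAAT or ATTGG) was found in 11 (39.3% beside 33.8%), the TATA box letters TATAAA or TTTATA in 3 (10.7% beside 12.4%), and AAGATGGC or GCCATCTT, the core of the YY1 motif, in 1, Med31 (3.57% beside 1.56%). Both strands were searched and none of these motifs contains another. A match is a description of letters and not a bound site. Cdk19, Med8, Med23, Med24 and Med30 had no entry.

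The head module holds the subunits that touch the polymerase and its initiation factors, and it contained the largest loss among all Mediator genes. MED17 is the architectural core of the head. Med17 (minus strand of chromosome 9, 15260351 to 15279931) had 607 and 573 counts in NSD1B WT and 0 and 0 in NSD1B KO. Its RNA was at least 379-fold lower in NSD1B KO (adjusted p = 7.46e-30), where the limit rests on 3 counts over both libraries, which is 0.215 CPM in NSD1B KO. MED18 and MED20 pair in the movable jaw of the head together with MED8, and the 3 genes went different ways. Med18 had 105 and 112 counts in NSD1B WT and 0 and 0 in NSD1B KO, at least 69.7-fold lower (adjusted p = 1.2e-16). Med20 had 3 and 4 counts in NSD1B WT and 99 and 102 in NSD1B KO. The CPM ratio of Med20 was 29.8 with a 95% counting interval of 14.2 to 75.1, and the fitted difference was 4.85 on the log2 scale (standard error 0.41, adjusted p = 7.22e-15). Exons of Med20 share 28.4% of their bases with other annotated genes, among them Gm20517 with 0, 0, 14 and 7 counts in the same order of libraries. Med8 was in the same range in both genotypes, with 891 and 914 counts in NSD1B WT and 916 and 776 in NSD1B KO (log2 fold change -0.04, adjusted p = 0.682), so that the libraries overlapped.

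MED11 and MED22 form a heterodimer at the base of the head, and their genes moved apart as well. Med11 had 721 and 640 counts in NSD1B WT and 1390 and 1244 in NSD1B KO (log2 fold change 1.005, standard error 0.09, adjusted p = 4.23e-14). Med22 had too few counts for the test, 11 and 8 in NSD1B WT and 0 and 0 in NSD1B KO, which put it at least 6.10-fold lower. MED6 bridges the head and the middle modules. Med6 fell from 361 and 378 counts to 282 and 207 (log2 fold change -0.54, standard error 0.13, adjusted p = 0.000148).

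The other 4 genes counted with the head, Med27, Med28, Med29 and Med30, were all higher in NSD1B KO. Med27 had 276 and 303 counts in NSD1B WT and 762 and 576 in NSD1B KO (log2 fold change 1.26, standard error 0.11, adjusted p = 2.85e-14). Med30 had 393 and 448 counts in NSD1B WT and 855 and 819 in NSD1B KO (log2 fold change 1.05, standard error 0.10, adjusted p = 1.69e-13). The rise was small for the other two. Med28 had 4520 and 4633 counts in NSD1B WT and 5676 and 5098 in NSD1B KO (log2 fold change 0.29), and Med29 had 349 and 391 in NSD1B WT and 450 and 442 in NSD1B KO (log2 fold change 0.32). Both small rises lay above the spread between replicates but fell under the fold threshold when counts were scaled by library size alone (0.21 and 0.25). Med28 also fell under it with upper quartile scaling (0.251), with a filter of 1 CPM in all libraries (0.249), without NSD1B KO replicate 1 (0.256) and after correction for exon length and base composition (0.259, with or without the replicate block), and Med29 missed the adjusted p in DESeq2 (0.0566). In other accounts of the complex these 4 subunits belong to the tail, MED19 to the head and MED14 to the middle. With that assignment the head had 2 higher and 3 lower genes, the middle 5 higher and 2 lower, and the tail 4 higher and 3 lower, so the uniform fall of the tail held for Med15, Med16 and Med24 and not for the wider tail.

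In the middle module, which forms the flexible arm of the complex, the rise of Med4 was the largest change with counts in all libraries. Med4 had 64 and 94 counts in NSD1B WT and 663 and 542 in NSD1B KO (log2 fold change 2.98, standard error 0.14, adjusted p = 1.1e-23), which was 7.92-fold in CPM. MED9, the partner of MED4, was not seen at all, as Med9 had 0 counts in all 4 libraries, which allows up to 0.106 CPM. MED7 and MED21 form the hinge of the middle module, and both genes rose. Med7 had 1065 and 1011 counts in NSD1B WT and 1568 and 1317 in NSD1B KO (log2 fold change 0.53, standard error 0.09, adjusted p = 3.17e-07). Med21 had 1314 and 1255 counts in NSD1B WT and 2068 and 1989 in NSD1B KO (log2 fold change 0.71, standard error 0.08, adjusted p = 6.5e-11). Med31, for a small conserved subunit at the end of the middle module, had 680 and 531 counts in NSD1B WT and 803 and 654 in NSD1B KO (log2 fold change 0.32), where the raw counts overlapped and the scaled levels did not. The call of Med31 was lost without NSD1B WT replicate 2 (log2 fold change 0.16, adjusted p = 0.185) and without NSD1B KO replicate 1 (0.21, adjusted p = 0.066), as well as in limma-voom (adjusted p = 0.111), in DESeq2 (adjusted p = 0.0633) and with library size alone (0.24).

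MED26 is the subunit that brings elongation factors to the complex, and its gene was lost from the NSD1B KO libraries. Med26 had 92 and 67 counts in NSD1B WT and 0 and 0 in NSD1B KO, at least 51.0-fold lower (adjusted p = 2.11e-14). Its antisense neighbour Gm17435, which shares exon bases with it on the opposite strand, had 69 and 58 counts in NSD1B WT and 0 and 0 in NSD1B KO, and in the 12.7% of Med26 exon bases that they share, the reads of the 2 genes cannot be told apart without a stated strand setting. Med10, for a core subunit of the middle module, had 1722 and 1623 counts in NSD1B WT and 1380 and 1180 in NSD1B KO (log2 fold change -0.33). It shares 92.8% of its exon bases with Gm26819 on the opposite strand, and its call was lost without NSD1B WT replicate 1 (-0.24) and after correction for exon length and base composition (-0.06, adjusted p = 0.551). The remaining middle genes did not pass the threshold. Med1, whose product binds nuclear receptors, had 167 and 169 counts in NSD1B WT and 156 and 127 in NSD1B KO (log2 fold change -0.20, adjusted p = 0.283). Med19 had 348 and 360 counts in NSD1B WT and 398 and 293 in NSD1B KO (0.02, adjusted p = 0.91).

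MED14 is the backbone that joins the head, middle and tail modules, and its gene had the smallest adjusted p of all Mediator genes. Med14 (minus strand of chromosome X, 12675369 to 12762073) had 19 and 18 counts in NSD1B WT and 830 and 660 in NSD1B KO. Its level went from 2.56 ± 0.14 CPM to 107 ± 12.2 CPM (SD, n = 2), a difference of 5.37 on the log2 scale (standard error 0.17, adjusted p = 2.3e-30). The X-linked Xist, the RNA that silences an X chromosome in females, had 47 and 62 counts in NSD1B WT and 1 and 2 in NSD1B KO, so that Xist and Y-linked genes were counted in the same libraries. Of 4 Y-linked genes, Ddx3y (624 and 641 counts in NSD1B WT, 914 and 875 in NSD1B KO), Kdm5d (89 and 77, 365 and 300) and Uty (121 and 113, 181 and 164) were higher in NSD1B KO, and Eif2s3y (1014 and 988, 169 and 184) was lower. The part of the sex of the mice in the Med14 difference was not tested. The other X-linked gene of the complex, Med12, had no count in any library.

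The tail module is the part of Mediator that activators contact. In the assignment used here, every tail gene that was tested was lower in NSD1B KO. By edgeR, DESeq2 and limma-voom 0 of the tail genes were higher, also at an unadjusted p below 0.05. Med15, whose product binds the sterol regulator SREBP, had 205 and 195 counts in NSD1B WT and 20 and 28 in NSD1B KO (log2 fold change -3.00, standard error 0.24, adjusted p = 7.95e-16). Med16 had 78 and 74 counts in NSD1B WT and 1 and 3 in NSD1B KO (log2 fold change -5.11, standard error 0.50, adjusted p = 5.47e-13), a CPM ratio of 0.0273 with a 95% counting interval of 0.00735 to 0.0714. Med24 had 41 and 53 counts in NSD1B WT and 18 and 13 in NSD1B KO (log2 fold change -1.54, standard error 0.37, adjusted p = 0.00019). None of these libraries overlapped between genotypes. Med25, whose product is the target of the viral activator VP16, had 9 and 15 counts in NSD1B WT and 0 and 0 in NSD1B KO, which was too few for the test and at least 7.71-fold lower. Med23, whose product binds the activator ELK1, had 1 count in all, so that no direction can be given. The summed level of the 5 tail genes was 46.6 and 46.2 CPM in NSD1B WT and 5.42 and 6.54 CPM in NSD1B KO. With Med27, Med28, Med29 and Med30 also counted as tail genes, the sum was higher in NSD1B KO. It was then 821.6 and 836.2 CPM in NSD1B WT and 1081 and 1037 CPM in NSD1B KO.

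In the kinase module 5 of 6 tested genes rose, all but Med12l by less than Med4 or Med14, and the genes for the cyclin and its kinases moved in opposite directions. Ccnc, for cyclin C, fell from 708 and 760 counts to 568 and 507 (log2 fold change -0.40). Cdk8 had 24 and 35 counts in NSD1B WT and 59 and 84 in NSD1B KO (log2 fold change 1.33, standard error 0.30, adjusted p = 0.000101). Cdk19 had 350 and 402 counts in NSD1B WT and 569 and 544 in NSD1B KO (log2 fold change 0.62, standard error 0.11, adjusted p = 7.97e-07). Per kilobase of exon, Cdk19 was the main kinase gene in all libraries, with 8.38 and 9.41 CPM per kb in NSD1B WT and 13.5 and 13.8 CPM per kb in NSD1B KO, beside 0.34 and 0.49 CPM per kb and 0.83 and 1.27 CPM per kb for Cdk8. The share of Cdk19 in the pair was 96.1% and 95.1% in NSD1B WT and 94.2% and 91.6% in NSD1B KO, and with 2 libraries against 2 this shift was not tested.

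MED13 ties the kinase module to the rest of Mediator, and both of its genes rose. Med13 had 474 and 518 counts in NSD1B WT and 791 and 720 in NSD1B KO (log2 fold change 0.66, standard error 0.10, adjusted p = 3e-08). Med13l had 53 and 52 counts in NSD1B WT and 120 and 80 in NSD1B KO (log2 fold change 0.98, standard error 0.24, adjusted p = 0.00034). Med13l made up 6.59% to 7.28% of the pair per kilobase in NSD1B WT and 7.24% to 9.63% in NSD1B KO, so that the ranges overlapped. MED12 switches on the kinase. Med12 was at 0 in all libraries, which allows up to 0.0137 CPM per kb, whereas its paralog Med12l had 0 and 1 counts in NSD1B WT and 67 and 33 in NSD1B KO (log2 fold change 6.37, standard error 0.71, adjusted p = 3.16e-11). The CPM ratio of Med12l was 104 with a 95% counting interval of 18.2 to 4140. Its log2 fold change was 5.555 without NSD1B WT replicate 1 and 8.653 without NSD1B WT replicate 2. The level of Med12l in NSD1B KO, 0.73 and 0.38 CPM per kb, was below that of Cdk8. Med12l shares 17.3% of its exon bases with other genes, among them P2ry12 with 0, 0, 21 and 19 counts in the same order of libraries.

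**Figure D3:**
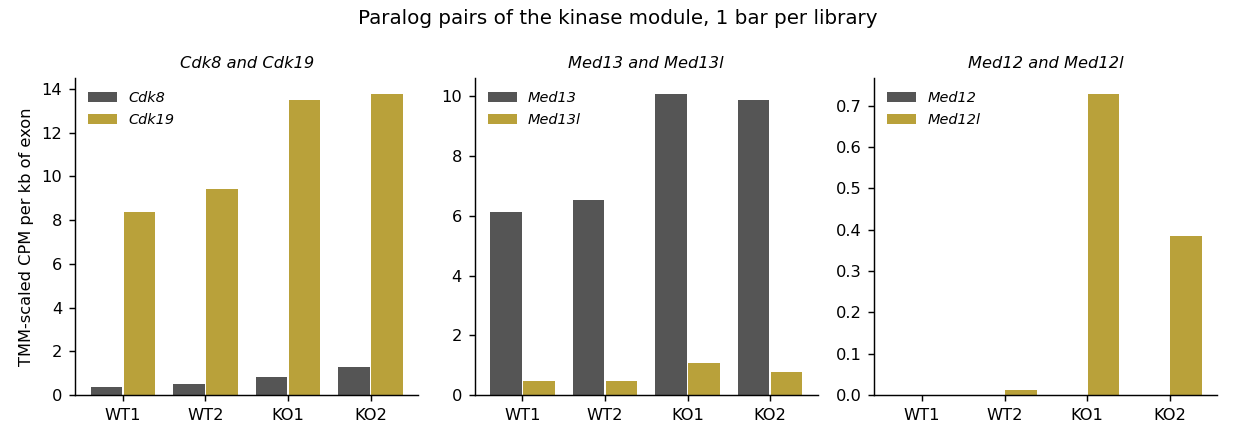
TMM-scaled CPM per kilobase of exon of the 3 paralog pairs of the kinase module, with 1 bar per gene and library (WT1 and WT2 are NSD1B WT, KO1 and KO2 are NSD1B KO). Cdk19 stands above Cdk8 and Med13 above Med13l in all 4 libraries, and in the pair of Med12 and Med12l only Med12l has a level, almost all of it in NSD1B KO.

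Counts of 0 in both NSD1B KO libraries were found for genes of different level and module. These zeros, like those of Med9, Med12 and Taf9 in all libraries, are those of the deposited counts and were not checked against the reads. The limits given here cover counting error alone, not reads lost in counting. With more than 3 counts over the NSD1B WT libraries, 5 Mediator genes (Med17, Med18, Med22, Med25 and Med26) had 0 counts in both NSD1B KO libraries, beside 14.9% of all genes that met the same minimum. In the reverse direction there were 0 Mediator genes, beside 11.4% of all genes. Of the genes with at least 100 counts in each NSD1B WT library, 4.67% had 0 counts in both NSD1B KO libraries, and Med17 and Med18 were among them. At 500 counts the share was 0.451%, which was 9 genes of 1995, Med17 included.

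Compared per kilobase of exon, the subunits of the complex were far from equal in level in NSD1B WT. Med28, for a subunit also reported at the cytoskeleton, was highest in NSD1B WT with 126 CPM per kb, followed by Med11 with 90.1 CPM per kb. In NSD1B KO Med11 was highest with 181 CPM per kb, followed by Med28 with 154 CPM per kb. Behind them in NSD1B WT came Med10, Med21, Med7, Med30 and Med31, between 48.5 and 51.5 CPM per kb, and the libraries of these 5 genes overlapped. The tail genes as assigned here were low, between 0.01 CPM per kb for Med23 and 2.38 CPM per kb for Med15 in NSD1B WT. The summed level per kilobase rose in the head from 420.1 and 423.3 in NSD1B WT to 569.7 and 594.6 in NSD1B KO, and in the middle module from 221.8 and 246.1 to 294.7 and 321.5. It was 34.7 and 37.2 in NSD1B WT and 41.7 and 40.9 in NSD1B KO in the kinase module, and 5.85 and 5.86 against 0.65 and 0.75 in the tail. These sums hold for the module assignment used here, are descriptions and were not tested. They were carried by the well counted genes and did not show the loss of Med17 or Med26.

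The direction of change ran only loosely with gene length or base composition. Over the 28 tested Mediator genes the Spearman correlation of the log2 fold change was 0.20 with exon length and -0.26 with GC content, and over all genes with both values it was 0.05 and -0.10. The points share the same 4 libraries, and no test was made. The median GC content of the exons was 47.2% in the genes that rose and 53.2% in those that fell, with the latter reaching from 37.6% for Ccnc to 60.0% for Med16. The 33 genes lie on 17 chromosomes, 7 of them on chromosome 11. Exons or stretches of 100 bases shared with other genes were absent for 12 of the 33, and 8 shared more than 10% of their exon bases, which makes the counts of Med10, Med20 and Med31 in particular less certain.

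Genes that work with Mediator passed the threshold in both directions, at a share close to that of all genes. Of 77 genes for RNA polymerase II, its initiation and elongation factors, cohesin and coactivators, 74 were tested, and 35 were higher and 24 lower in NSD1B KO (median log2 fold change 0.22), which was 79.7% past the threshold beside 78.2% of all tested genes. Among the 13 polymerase subunits, 4 rose and 5 fell, from Polr2b (0.73, standard error 0.11, adjusted p = 4.15e-08), the second largest subunit, to Polr2e (-1.38, standard error 0.10, adjusted p = 1.86e-16), a subunit shared by the 3 nuclear polymerases. The general transcription factors, which open the promoter with the head module, had 11 higher and 4 lower of 17. Gtf2e2, for the beta subunit of TFIIE, had 53 and 65 counts in NSD1B WT and 511 and 414 in NSD1B KO (3.02, standard error 0.16, adjusted p = 2.68e-22), and Ercc3, a TFIIH helicase, fell from 242 and 248 to 72 and 103 (-1.43, standard error 0.18, adjusted p = 6.08e-10). TFIID, the factor that recognises the core promoter, also had genes at 0. Of its 15 tested genes 7 rose and 6 fell, and Taf8 had 4 and 4 counts in NSD1B WT and 201 and 185 in NSD1B KO (5.60, standard error 0.33, adjusted p = 2.79e-20). Taf11 fell from 304 and 293 counts to 59 and 56 (-2.32, standard error 0.18, adjusted p = 1.38e-16), and Taf7 (359 and 365) and Taf9b (536 and 578) had 0 counts in both NSD1B KO libraries, while Taf9 had 0 counts in all 4 libraries.

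The elongation factors, the coactivators and cohesin, which holds enhancer and promoter together with Mediator, each had genes higher and lower, and the lists were not tested against each other. For the elongation kinase and its partners, 3 rose and 5 fell of 11 tested, with Mllt3 at 2.39 (standard error 0.18, adjusted p = 1.34e-16) and Eaf1 at -1.65 (standard error 0.21, adjusted p = 1.13e-09). Of the 10 genes for cohesin and its loader, 7 rose and 2 fell (median log2 fold change 0.80). Wapl, the cohesin release factor, rose by 1.71 (standard error 0.17, adjusted p = 1.93e-12), Rad21, the cohesin ring subunit, fell by 0.77 (standard error 0.11, adjusted p = 2.26e-08), and the loader gene Mau2 had 0 and 0 counts in NSD1B WT and 79 and 106 in NSD1B KO. Of 8 coactivator genes 3 rose and 2 fell, with the acetyltransferase gene Kat2a at 3.34 (standard error 0.50, adjusted p = 4.6e-08) and Ncoa3 at -0.94 (standard error 0.11, adjusted p = 4.16e-11).

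**Figure D4:**
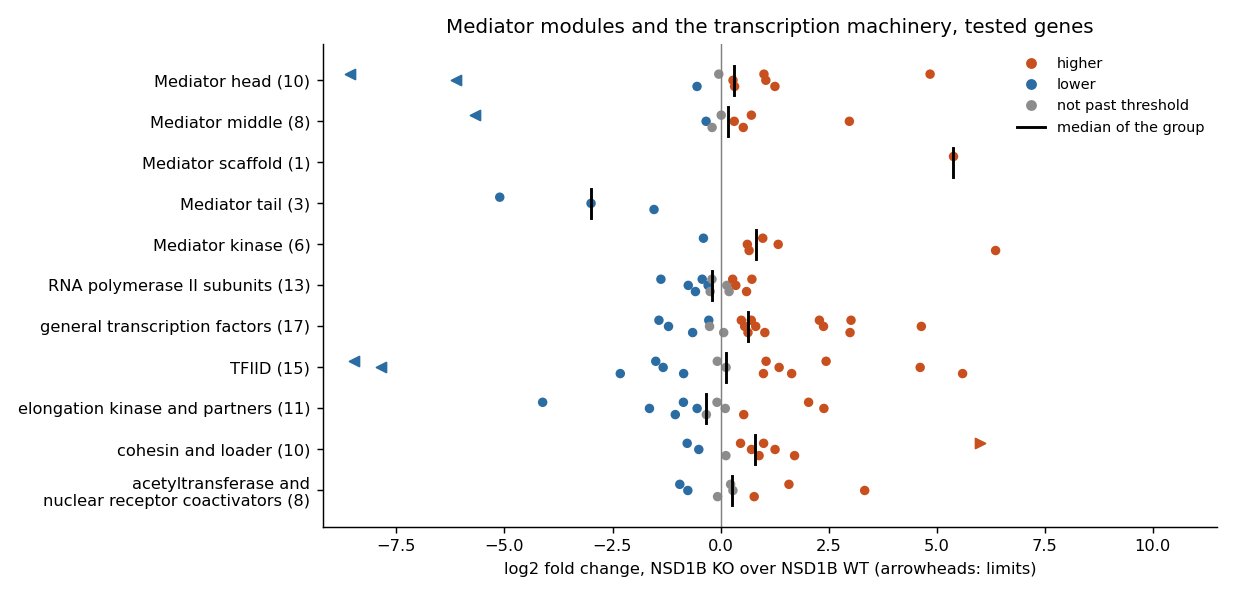
Log2 fold change of NSD1B KO over NSD1B WT for the tested genes of each Mediator module and of 6 lists of genes that work with Mediator, with 1 point per gene, arrowheads for limits where 1 genotype had 0 counts and a black bar for the median of each group. The tail as assigned here has the lowest median (-3.00). Cohesin (0.80), the kinase module (0.82) and Med14 alone (5.37) lie highest. The other medians run from -0.33 to 0.64, with genes far to both sides.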

How the data were processed

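The 4 RNA-seq libraries of splenic B220+ B cells, 2 NSD1B WT and 2 NSD1B KO, were grouped by the genotype in their labels. The authors deposited raw counts, as 1 whole number per gene and library, from paired-end reads mapped to mm10 with Bowtie2; Cufflinks is also named, for FPKM values that were not used here. How the reads were counted (program, strand setting, annotation release) is not given in the sources used here. Reads on no gene (44.3% to 44.5% of those counted), ambiguous reads (2.21% to 2.41%) and reads that were not unique (11.2% to 13.2%) were left out of library sizes. GENCODE M21 matched 99.53% of the identifiers and gave positions and exon lengths. RefSeq (GRCm38.p6) gave the promoters.

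Counts were scaled by TMM, filtered by filterByExpr (minimum count 10, minimum total 15) and tested with the quasi-likelihood test of edgeR 4.0.16 in R 4.3.3, with genotype as the only term and p-values adjusted by the Benjamini-Hochberg method over 11657 genes. Genes passed at an adjusted p under 0.05 with over 1.2-fold change. Where both libraries of 1 genotype were at 0, a limit was taken from 3 counts over that genotype (0.208 CPM in NSD1B WT, 0.215 CPM in NSD1B KO), and for 1 to 10 counts a ratio with an exact 95% interval was computed; both cover counting error only. The scripts were tested on simulated data in which only a small part of the genes changed. Most genes differ in the real data, so the simulation does not show how the scaling behaves here. All Mediator genes are named, with full statistics for those past the threshold with an absolute log2 fold change of at least 0.5; of each list of partner genes, those with the largest increase and decrease among genes counted in all libraries are named, and Taf7, Taf9b and Mau2 were added after their values were seen. The members and lists were chosen with earlier results of these data known. Alternatives used DESeq2 1.42.0, limma-voom 3.58.1, other scalings and filters, a replicate block, a length and GC trend, and each library left out.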

Additional observations from a re-analysis of the deposited data

How the results depend on the processing

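Under the alternatives 404 values for single Mediator genes kept their direction and their side of the threshold, 25 lost the call and 9 changed sign, the last all for Med8 and Med19, which did not pass the threshold. Med8 was 0.057 after correction for exon length and base composition and 0.056 with the replicate block added, and reached from -0.118 to 0.034 as 1 library at a time was left out. Med19 was -0.065 with library size alone, -0.024 with upper quartile scaling, -0.025 with a filter of 1 CPM in all libraries, -0.05 after the length and base composition correction and -0.058 with the block added, and reached from -0.17 to 0.181 as 1 library at a time was left out. Counts over all Mediator genes, all partner genes and all genes moved by over 1.5 times under 3 settings: 5 Mediator genes were lower with the 1 CPM filter and 5 with the strict threshold, 15 partner genes were lower with the strict threshold, and of all genes 2855 were higher and 2991 lower with the 1 CPM filter and 3117 lower among genes with a count in every library. These filters remove genes at 0 in a genotype by construction. By module, the lower genes of the middle module went from 2 to 1 under those 3 settings, without NSD1B WT replicate 1 and after the length and base composition correction, where Med10 lost its call; the lower genes of the head went from 3 to 1 under both filters; the strict threshold left 3 higher and 0 lower kinase genes; and the other module assignment gave 2 higher genes in the head and 4 in the tail. With each library left out in turn, 14 to 16 Mediator genes were higher and 9 to 11 lower, 35 to 36 and 22 to 26 partner genes, and 4122 to 4342 and 4356 to 4936 of all genes. DESeq2 called 14 Mediator genes higher and 11 lower, limma-voom 15 and 9. The median over all genes was -0.10 with TMM and 0.03 after the length and base composition correction. Same-numbered libraries shared little deviation from their genotype mean (r = 0.07 over 7352 genes), which with 2 libraries per genotype cannot show whether samples were paired. The replicate block gave 16 Mediator genes higher and 9 lower, 4254 and 4706 of all genes, and -0.74 for Nsd1. With 6769118 to 7566834 counts per library, Med9, Med12, Med22, Med23 and Med25 had too few counts for the main test. DESeq2 tested 30 Mediator genes, and edgeR tested 31 with a filter of 1 count in any library, beside 28. Med22 and Med25 were then called lower, so both settings had 4 lower genes in the head and 4 in the tail.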
